A study of Homo sapiens with 6 samples.

Results

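The genes described here encode the core of MHC class I antigen presentation in MCF10A cells, a human mammary epithelial line that is not transformed. They were chosen by name, as a pathway, with earlier results of these data known, and no threshold on their values was used: the heavy chains HLA-B, HLA-C and HLA-E, the invariant chain B2M, the peptide transporter TAP1 and TAP2, the transporter-bound chaperone TAPBP, and the immunoproteasome subunits PSMB8 and PSMB9. These are 9 of the 23459 genes in the count table, and 9 of 9 passed the low-count filter that left 12510 genes for testing. Cells had received 20 nM of a control siRNA (siCtrl) or of siRNA against YAP1 and WWTR1, the gene for TAZ (siYAP/TAZ). Every library description, in both groups, carries the label WT (wild type). From each group 3 libraries were sequenced from the 3′ end of polyadenylated RNA. The comparison asks how class I transcripts stood when both Hippo pathway co-activators were lowered. The study's methods call its RNA-Seq replicates biological, in a general statement that does not say how the cultures of these libraries were kept apart, and the p-values measure the spread between the libraries.

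Class I molecules show fragments of a cell's own proteins to CD8 T cells and natural killer cells. The proteasome cuts proteins into peptides, TAP1 and TAP2 carry the peptides into the endoplasmic reticulum, and TAPBP (tapasin) holds an empty heavy chain with B2M beside the transporter until a peptide has bound. Epithelial cells express class I molecules at rest, and interferon gamma, through transcription factors such as IRF1 and the transactivator NLRC5, raises nearly every gene of the pathway, PSMB8 and PSMB9 included.

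The libraries held 3175149 to 4317286 counts, and 3 counts, the limit that a count of 0 allows, equal 0.68 to 0.992 CPM (library-size-scaled counts, here with TMM normalisation). This limit and the counting intervals given for sparse genes cover counting error only. Groups follow the sample descriptions; for 2 libraries, siCtrl replicate 2 and siYAP/TAZ replicate 2, the title and genotype entries name the opposite group. YAP1 fell from 201 ± 11.1 CPM in siCtrl to 115 ± 3.25 in siYAP/TAZ (SD, n = 3 each, edgeR adjusted p = 0.0138), and WWTR1 from 106 ± 4.02 to 65.8 ± 5.44 (adjusted p = 0.0311). For both targeted genes the library described as siCtrl replicate 2 was among the siCtrl values, with 204 CPM of YAP1 and 109 CPM of WWTR1. In the first principal component, which held 48.4% of the variance, siCtrl replicate 2 scored 7.15, away from the other siCtrl libraries (-42.6 and -34.9) and below the siYAP/TAZ libraries (9.77 to 33.7). Results that rest on siCtrl replicate 2 are therefore given with and without it. Leukocyte markers were close to 0: LYZ and NKG7 had no counts, 1 of 8 markers was tested (CD14, 9 to 23 counts), and the summed list ran from 5.78 to 11.1 CPM in siCtrl and from 4.35 to 8.59 in siYAP/TAZ. The 8 basal epithelial markers were all tested and summed to 1728 to 2334 CPM in siCtrl and 1433 to 1728 in siYAP/TAZ. Among 6 stromal and endothelial markers COL1A2 was at 0 and PECAM1 alone was tested, and the list summed to 4.31 to 6.17 CPM in siCtrl and 7.48 to 12.2 in siYAP/TAZ. PECAM1, an endothelial and platelet adhesion molecule, had 1.72, 1.23 and 1.01 CPM under siCtrl against 3.17, 9.59 and 4.90 under siYAP/TAZ, without overlap, and rose in the fit with the replicate number as a block (2.04 on the log2 scale, edgeR adjusted p = 0.0245; 0.0785 without the block). PECAM1 had the same direction between groups as the members that this fit called, on 4 to 29 counts a library. Within siCtrl it was highest in replicate 1, where those members, HLA-B, B2M and TAPBP, were lowest, but on only 6, 4 and 4 counts. Within siYAP/TAZ PECAM1 was lowest in replicate 1 and highest in replicate 2, the same order as HLA-B, B2M and TAPBP. Its part in their result was not tested.

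With the group as the only term, 0 of the 9 class I genes passed an adjusted p of 0.05 by edgeR, where 1.96% of all tested genes did, and DESeq2 also called 0. At an unadjusted p under 0.05 by edgeR there were 4 of 9 (44.4%), against 17.7% of all tested genes. They were HLA-B, HLA-C and TAPBP with a positive and TAP2 with a negative fold change. DESeq2 also had 4 of 9, with B2M in place of TAP2. Replicate numbers were taken as pairs from the correlations of same-numbered deviations, given in the processing account. With the number as a block HLA-B, B2M and TAPBP rose, 3 of 9 members (33.3%), beside 4.66% of all tested genes called higher. No member was called lower with the block, beside 5.44% of all tested genes. Leaving out siCtrl replicate 2 in the fit without a block gave the same 3 genes, all higher, where 6.08% of 12836 tested genes were called higher. Leaving out any other single library in that fit called 0 members. The omitted siCtrl replicate 2 was singled out from these same data. It was the highest siCtrl library for HLA-B, B2M and TAPBP, so leaving it out had to widen their group difference. Without siCtrl replicate 1, their lowest, the log2 fold changes were 0.60, 0.30 and 0.49 (edgeR adjusted p = 0.393, 0.638 and 0.37). The fitted log2 fold change was positive for 8 of 9 members, with a median of 0.40 over the 9 beside 0.00 over all tested genes. Without siCtrl replicate 2 the members' median was 0.72. The 2 groups did not overlap for HLA-C and TAP2, 2 of 9 members (22.2%) beside 22.1% of all tested genes, which is the background share.

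**Figure D1:**
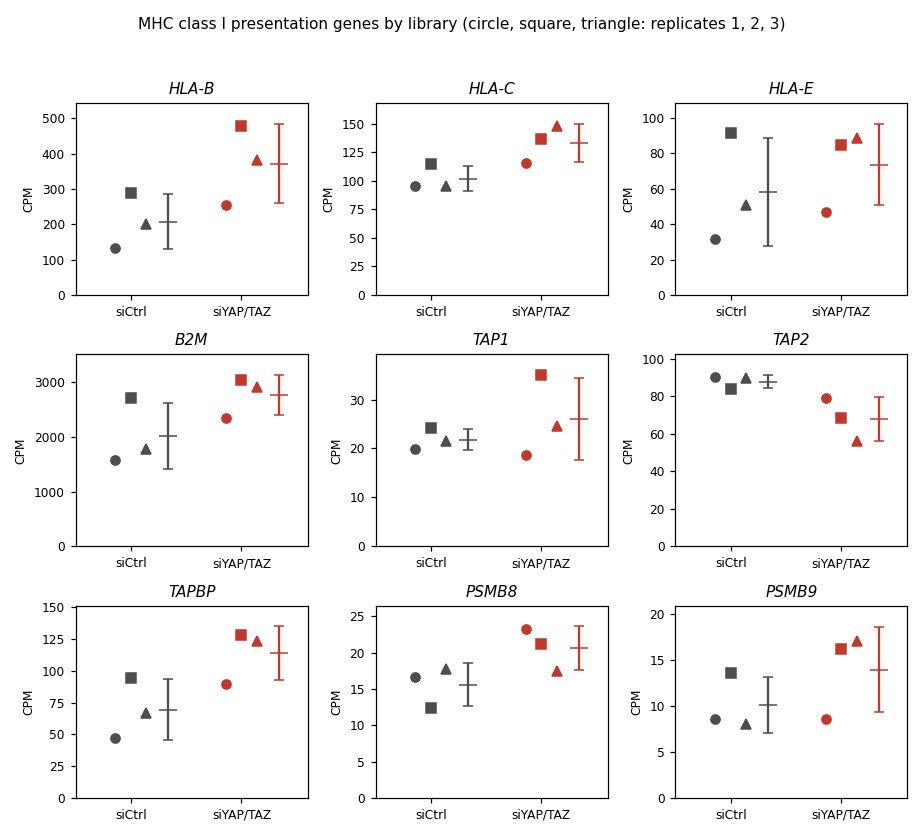
CPM (vertical axis, linear, from 0) of each of the 9 class I genes in the siCtrl and siYAP/TAZ libraries, with circles, squares and triangles for replicates 1, 2 and 3 and bars for the mean ± SD. In the HLA-B, HLA-E, B2M and TAPBP panels the siCtrl square, replicate 2, is above the other siCtrl points, and in the TAP2 panel the siYAP/TAZ points are all below the siCtrl points.

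B2M is the light chain shared by all classical class I molecules, and it was by far the most abundant member: its mean of 2390 CPM over the 6 libraries ranked 18th of the 12510 tested genes. Replicates 1, 2 and 3 had 1581, 2704 and 1775 CPM under siCtrl against 2344, 3037 and 2902 under siYAP/TAZ. The groups overlapped through siCtrl replicate 2 alone, which was above siYAP/TAZ replicate 1. The means were 2020 ± 600 and 2761 ± 367 CPM (SD, n = 3), and the fitted log2 fold change of 0.45 (SE 0.22) missed the threshold (edgeR adjusted p = 0.334). With the block B2M rose by 0.48 (SE 0.12, adjusted p = 0.0346), and within replicate numbers its log2 ratio was 0.57, 0.17 and 0.71. Without siCtrl replicate 2 the fold change was 0.72 (adjusted p = 0.0219). The blocked call ended without the replicate 1 pair (adjusted p = 0.19) and without the replicate 3 pair (0.355).

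Among the heavy chains, which bind the peptide and are read by T cell receptors, HLA-B had the largest fitted fold change of all 9 members. Its siCtrl libraries had 134, 290 and 200 CPM and its siYAP/TAZ libraries 254, 479 and 384 CPM. The highest siCtrl value, again replicate 2, lay between the lowest and the middle siYAP/TAZ values. Means were 208 ± 78.1 and 372 ± 113 CPM, 0.84 apart on the fitted log2 scale (SE 0.29, edgeR adjusted p = 0.182). The ratio was nearly the same at each replicate number, 0.92, 0.73 and 0.94 on the log2 scale, and with the block HLA-B rose by 0.86 (SE 0.11, adjusted p = 0.0013). Without siCtrl replicate 2 the value was 1.16 (adjusted p = 0.0165). HLA-B was the only member whose blocked call held when any 1 of the 3 replicate pairs was left out, with adjusted p-values of 0.00786, 9.36e-08 and 0.0411 without pairs 1, 2 and 3.

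HLA-C, a classical heavy chain that is also a main ligand of killer-cell receptors, had 95.6, 115 and 95.2 CPM under siCtrl against 115, 137 and 148 under siYAP/TAZ. Its groups did not overlap, although siCtrl replicate 2 (114.8) and siYAP/TAZ replicate 1 (115.4) nearly met. The log2 fold change was 0.39 (SE 0.15), and neither the edgeR adjusted p of 0.213 nor the blocked one of 0.0756 passed. HLA-E, which presents leader peptides of other class I chains to natural killer cells, had 31.9, 91.6 and 51.0 CPM under siCtrl against 47.1, 85.0 and 88.9 under siYAP/TAZ. Here siCtrl replicate 2 was the highest of all 6 libraries, and the groups overlapped, although siCtrl replicate 1 was below each siYAP/TAZ library. The log2 fold change of HLA-E was 0.34 (SE 0.36, adjusted p = 0.672) and with the block 0.41 (adjusted p = 0.168). The HLA-E value turned on single libraries: it was 0.82 without siCtrl replicate 2 (adjusted p = 0.0849) and 0.05 without siCtrl replicate 1 (adjusted p = 0.968), while HLA-C was 0.48 without siCtrl replicate 2 (adjusted p = 0.0527). Without the replicate 2 pair, the blocked fit called both, HLA-C at 0.46 (adjusted p = 0.00654) and HLA-E at 0.70 (0.000737).

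**Figure D2:**
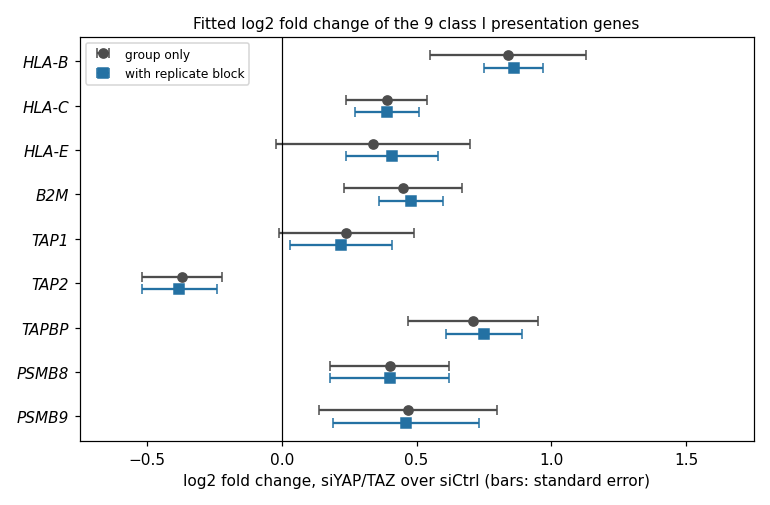
Fitted log2 fold change of siYAP/TAZ over siCtrl (horizontal axis) for each class I gene, with its standard error as a bar, from the fit with group only (grey circles) and the fit with the replicate block (blue squares). Estimates nearly coincide between the fits, while the standard error of HLA-B is 0.29 without and 0.11 with the block.

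TAPBP bridges the heavy chain and the transporter. It had 47.1, 94.7 and 66.8 CPM under siCtrl against 89.5, 128 and 124 under siYAP/TAZ. As for B2M, siCtrl replicate 2 alone overlapped the other group, by exceeding siYAP/TAZ replicate 1. Means were 69.6 ± 23.9 and 114 ± 21.2 CPM, and the fitted change was 0.71 on the log2 scale (SE 0.24, edgeR adjusted p = 0.177). With the block TAPBP rose by 0.75 (SE 0.14, adjusted p = 0.00706), with ratios of 0.93, 0.44 and 0.89 within replicate numbers, and without siCtrl replicate 2 the change was 0.99 (adjusted p = 0.0118). The blocked call held without the replicate 1 pair (adjusted p = 0.0487) and without the replicate 2 pair (4.8e-06), and was lost without the replicate 3 pair (0.128).

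The paired chains of the transporter had fold changes of opposite sign. TAP1 had 19.8, 24.1 and 21.6 CPM under siCtrl against 18.6, 35.0 and 24.5 under siYAP/TAZ, with siYAP/TAZ replicate 1 the lowest and replicate 2 the highest of all libraries. The fitted change of TAP1 was 0.24 on the log2 scale (SE 0.25, adjusted p = 0.658). TAP2 had 90.2, 83.9 and 89.5 CPM under siCtrl against 79.3, 68.4 and 56.0 under siYAP/TAZ, so each siYAP/TAZ library was below each siCtrl library. Its mean went from 87.9 ± 3.42 to 67.9 ± 11.7 CPM, and its siCtrl replicate 2 was close to the other siCtrl libraries. The log2 fold change of TAP2 was -0.37 (SE 0.15) at an unadjusted p of 0.038 and an edgeR adjusted p of 0.255, and with the block it was -0.38 (adjusted p = 0.103). Only without the replicate 2 pair did the blocked fit call it, at -0.42 (adjusted p = 0.028). Within replicate numbers TAP2 was lower in siYAP/TAZ 3 of 3 times, with log2 ratios of -0.19, -0.29 and -0.68.

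PSMB8 and PSMB9 replace constitutive catalytic subunits in the immunoproteasome and were the least abundant members, at means of 18.1 and 12 CPM over the 6 libraries. PSMB8 had 16.7, 12.3 and 17.8 CPM under siCtrl against 23.3, 21.2 and 17.4 under siYAP/TAZ, and the groups overlapped. On the log2 scale PSMB8 differed by 0.40 (SE 0.22, adjusted p = 0.388). PSMB9 had 8.62, 13.6 and 8.04 CPM under siCtrl against 8.61, 16.2 and 17.1 under siYAP/TAZ, with siYAP/TAZ replicate 1 at the level of the 2 lower siCtrl libraries. PSMB9 differed by 0.47 (SE 0.33, adjusted p = 0.504) on only 30 to 63 counts a library. The blocked adjusted p-values of PSMB8 and PSMB9 were 0.298 and 0.319. Without siCtrl replicate 2 the fitted change of PSMB8 was 0.26 (adjusted p = 0.475) and that of PSMB9 was 0.73 (adjusted p = 0.191).

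**Figure D3:**
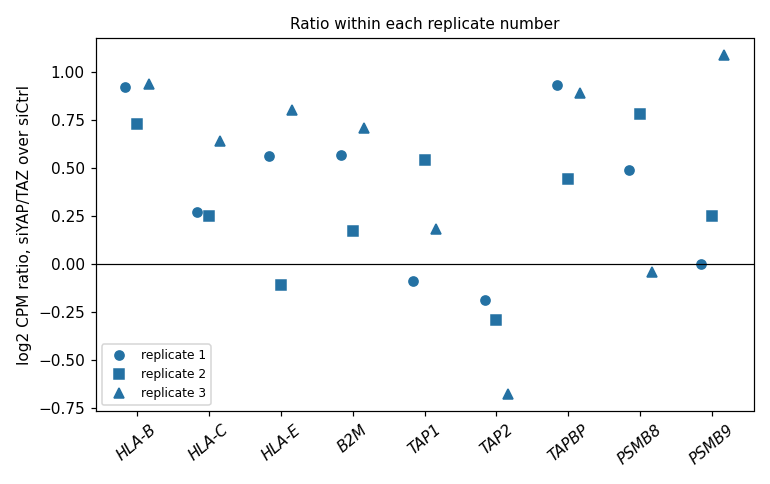
Log2 ratio of CPM, siYAP/TAZ over siCtrl (vertical axis), of each class I gene within replicate numbers 1 (circle), 2 (square) and 3 (triangle). HLA-B, HLA-C, B2M and TAPBP are above 0 in all 3, TAP2 is below 0 in all 3, and the replicate 2 ratio of B2M, 0.17, is the lowest of that gene.

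The constitutive counterparts of the immunoproteasome subunits did not pass in either fit. PSMB5, PSMB6 and PSMB7 differed by 0.10, -0.02 and 0.02 on the log2 scale (adjusted p-values from 0.743 to 0.969), and the signs of PSMB6 and PSMB7 turned under several alternatives. PSMB10, the third immunoproteasome subunit, had 0.17 (SE 0.29, adjusted p = 0.811). The ratio of PSMB8 to PSMB5 counts was 0.0826, 0.0733 and 0.0834 under siCtrl against 0.11, 0.102 and 0.0842 under siYAP/TAZ. These values did not overlap, and the log2 difference of 0.30 gave p = 0.1 in a two-sided exact permutation test, the smallest that 3 against 3 libraries allow (adjusted p = 0.3 over 3 ratios). PSMB9 to PSMB6 was 0.099, 0.164 and 0.114 under siCtrl against 0.101, 0.224 and 0.218 under siYAP/TAZ, which overlapped (exact permutation p = 0.3, adjusted 0.45). PSMB10 to PSMB7 differed by 0.17 on the log2 scale (exact permutation p = 0.5).

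Several members are counted from ground shared with other genes. TAP1 had 69, 78 and 86 counts under siCtrl against 82, 106 and 90 under siYAP/TAZ, and the row of PSMB8-AS1, an antisense RNA, had 67, 77, 85, 80, 104 and 89 counts in the same order, at most 2.9% away. In GENCODE 44 on GRCh37 PSMB8-AS1 overlaps TAP1 (chr6:32812986-32821593, minus strand) by 1292 bases on the opposite strand. A plus-strand PSMB9 model (chr6:32811913-32827628) spans all 8608 bases of TAP1 and 544 bases of PSMB8 (chr6:32808494-32812456, minus strand). Whether the authors' counting used strand is not given in the sources used here, and without strand the reads of these overlapping genes cannot be told apart. TAP2 (chr6:32789610-32806516, minus strand) is contained in a longer same-strand protein-coding model. HLA-B (chr6:31321649-31334844, minus strand) shares 6203 bases with the pseudogene DHFRP2 on the same strand, and TAPBP (chr6:33267471-33282061, minus strand) shares 1397 bases with a long non-coding RNA on the other. B2M (chr15:45003556-45011049, plus strand), the one member outside chromosome 6, HLA-C (chr6:31236526-31239907, minus strand) and HLA-E (chr6:30457286-30461971, plus strand) share no bases with another model.

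Heavy chains resemble each other in sequence, so reads could be divided among them. Of the 351 stretches of 50 bases in the last 400 bases of their reference transcripts, HLA-B and HLA-C shared 13 (3.7%), and HLA-E shared 0 with the other heavy chains compared.

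**Figure D4:**
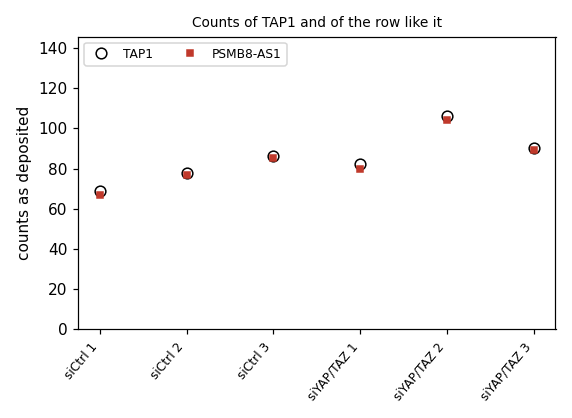
Counts as deposited (vertical axis, linear, from 0) in each of the 6 libraries for TAP1 (open circles) and PSMB8-AS1 (filled squares). The squares follow the circles within 2.9% in every library.

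Promoter sequence was examined for the members because the blocked fit called 3 of them together. RefSeq promoters (GRCh38.p14, 250 bases before to 50 after the annotated start) were found for 8 of the 9 genes. They are shown for HLA-B (chr6:31357130-31357429, minus strand), B2M (chr15:44711267-44711566, plus strand) and TAPBP (chr6:33314029-33314328, minus strand), the genes that rose with the block, and for TAP2 (chr6:32838690-32838989, minus strand), the member with the negative fold change. Capitals mark matches to an interferon regulatory factor repeat, a kappa B site, a CCAAT box or a TEAD motif.
HLA-B: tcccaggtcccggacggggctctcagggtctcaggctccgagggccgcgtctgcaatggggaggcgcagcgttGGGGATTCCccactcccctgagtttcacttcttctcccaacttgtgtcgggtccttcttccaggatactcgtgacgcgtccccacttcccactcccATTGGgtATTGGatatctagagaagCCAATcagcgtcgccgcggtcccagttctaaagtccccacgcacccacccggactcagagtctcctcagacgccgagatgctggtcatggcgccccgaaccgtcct
B2M: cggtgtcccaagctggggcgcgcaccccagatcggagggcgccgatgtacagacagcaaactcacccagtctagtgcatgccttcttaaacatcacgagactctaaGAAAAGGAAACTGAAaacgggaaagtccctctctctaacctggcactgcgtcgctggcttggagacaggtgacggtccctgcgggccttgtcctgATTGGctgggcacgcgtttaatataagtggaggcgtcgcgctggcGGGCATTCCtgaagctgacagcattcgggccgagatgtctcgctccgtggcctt
TAPBP: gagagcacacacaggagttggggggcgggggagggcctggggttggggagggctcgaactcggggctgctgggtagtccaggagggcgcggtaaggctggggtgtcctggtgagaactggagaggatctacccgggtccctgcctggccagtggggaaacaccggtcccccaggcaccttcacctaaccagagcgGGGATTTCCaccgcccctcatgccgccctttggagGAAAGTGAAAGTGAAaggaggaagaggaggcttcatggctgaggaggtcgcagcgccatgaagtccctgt
TAP2: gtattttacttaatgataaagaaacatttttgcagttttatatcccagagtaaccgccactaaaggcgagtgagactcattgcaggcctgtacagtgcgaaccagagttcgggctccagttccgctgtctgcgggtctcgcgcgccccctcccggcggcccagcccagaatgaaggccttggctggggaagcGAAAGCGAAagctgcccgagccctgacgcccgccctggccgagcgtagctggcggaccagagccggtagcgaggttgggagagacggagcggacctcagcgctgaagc

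The IRF repeat was searched as GAAANNGAA on both strands and was found in B2M, TAP1, TAP2 and TAPBP, 4 of 8 members, and in 8.11% of 35116 promoters of the same length. B2M, TAP1 and TAPBP each hold a pair of overlapping copies, and TAP2, whose fold change was negative, holds 1. The kappa B motif GGGNNTTCC was found in HLA-B at -177, in B2M at -4 and in TAPBP at -55, counted from the start, and in 6.58% of all promoters. They are the genes that rose with the block, which was noticed after their values were seen and was not tested. Only this string was searched, so kappa B sites of other lengths were missed. A longer run, GGGACTTTCC, is in TAP1, which the blocked fit did not call (edgeR adjusted p = 0.532). The same run is on the other strand of B2M, unmarked above. The CCAAT box was found in 5 of 8 members and 34.6% of all promoters. The TEAD motif GGAATG, the sequence bound by the DNA-binding partners of YAP and TAZ, was found in B2M only, at -1 and overlapping its kappa B match, and in 14.0% of all promoters. The interferon gamma-activated (GAS) element TTCNNNGAA had 0 matches in the 8 members and was in 7.66% of all promoters, and the AP-1 motif TGANTCA had 0 matches and was in 7.71%. A match is a run of letters in this window and was not tested as a binding site.

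The other genes of the pathway were read from lists of 74 genes, of which 53 were tested, and 0 passed without the block by edgeR. With the block 7 passed, 6 higher and 1 lower, beside 4.66% of all tested genes called higher and 5.44% called lower. The 7 tested class I and class I-like chains outside the members had a median log2 fold change of 0.21. MICA and MICB, stress-induced ligands of the natural killer receptor NKG2D, had negative fold changes. MICA had 19.5, 17.9 and 21.4 CPM under siCtrl against 12.7, 11.6 and 14.1 under siYAP/TAZ, and MICB had 16.9, 16.7 and 11.8 against 7.71, 6.28 and 11.2 CPM. Neither overlapped between groups, and their log2 fold changes of -0.61 (SE 0.20, edgeR adjusted p = 0.166) and -0.84 (SE 0.29, adjusted p = 0.172) did not pass without or with the block (0.0863 and 0.0961). These 2 genes were singled out after their values were seen.

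Among the 6 chaperones and peptide-trimming genes 0 were called by either fit, with a median log2 fold change of -0.03. The abundant ER chaperones CANX (0.25, SE 0.13) and CALR (-0.22, SE 0.22) and the trimming peptidase ERAP1 (0.08, SE 0.16) stood at adjusted p-values between 0.366 and 0.844. TAPBPL, a tapasin-related peptide editor, had 4.88, 3.39 and 2.76 CPM under siCtrl against 9.07, 5.62 and 9.52 under siYAP/TAZ, without overlap, and was named after its values were seen. Its log2 fold change of 1.15 (SE 0.35) had an adjusted p of 0.132 and of 0.0591 with the block. The PA28 genes PSME1 and PSME2, whose products activate the proteasome, had 0.39 (adjusted p = 0.273) and 0.32 (0.303).

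The 15 regulators of class I transcription gave 0 calls by either fit and a median of 0.09. NLRC5, the class I transactivator, had 0.41 (SE 0.33, adjusted p = 0.568). IRF1, which binds class I promoters after interferon, had 29.3, 34.3 and 19.9 CPM under siCtrl against 35.4, 40.3 and 45.7 under siYAP/TAZ. Its groups did not overlap, and its log2 fold change of 0.55 (SE 0.22) had an adjusted p of 0.237, of 0.113 with the block and of 0.0486 without siCtrl replicate 2. IRF1 and NLRC5 were named after their values were seen.

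Of 8 tested interferon receptor and Janus kinase genes, IFNGR1 and JAK1 rose with the block, beside 4.66% of all tested genes called higher. The list held 6 positive and 2 negative fold changes, with a median of 0.11 on the log2 scale. IFNGR1, the ligand-binding chain of the interferon gamma receptor, had 58.6, 77.5 and 40.2 CPM under siCtrl against 99.5, 96.5 and 80.8 under siYAP/TAZ. Its groups did not overlap, and IFNGR1 differed by 0.66 on the log2 scale (SE 0.22, adjusted p = 0.168) and by 0.69 with the block (adjusted p = 0.0159). JAK1, the kinase bound to that chain, had 76.1, 99.4 and 79.4 CPM against 115, 112 and 134 CPM. JAK1 differed by 0.50 (SE 0.15, adjusted p = 0.12) and by 0.51 with the block (adjusted p = 0.04). IFNGR2 (0.07) and JAK2 (0.39) did not pass in either fit.

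**Figure D5:**
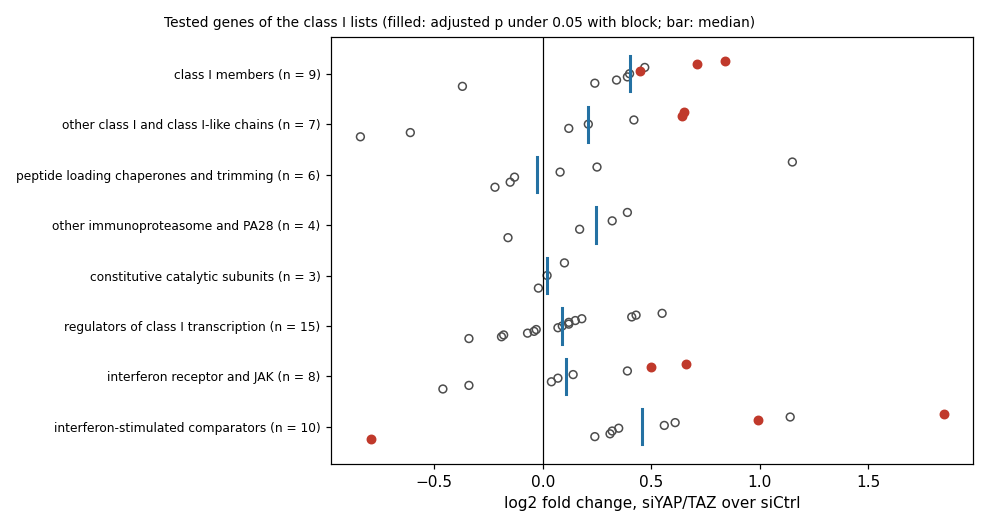
Fitted log2 fold change, siYAP/TAZ over siCtrl (horizontal axis), of every tested gene in the class I members and 7 further lists (rows), with filled red points for genes called with the replicate block and a bar for each list's median. The members' median is 0.40, the interferon-stimulated list has the highest median of the 8, 0.45, and the constitutive subunits have 0.02.

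Interferon-stimulated genes outside class I served as comparators, and 10 of 17 were tested, with a median log2 fold change of 0.45. With the block GBP2 and OAS1 rose and GBP1 fell, beside 4.66% of all tested genes called higher and 5.44% called lower. GBP2, an interferon-induced GTPase, had 10.6, 41.0 and 7.54 CPM under siCtrl against 62.8, 63.5 and 83.5 under siYAP/TAZ, and siCtrl replicate 2 was again the highest control. The fitted change of GBP2 was 1.85 (SE 0.50, adjusted p = 0.0956), 2.05 with the block (adjusted p = 0.00973) and 2.95 without siCtrl replicate 2 (adjusted p = 0.000144). GBP1, of the same family, had 28.7, 20.4 and 26.6 CPM under siCtrl against 15.9, 9.59 and 18.0 under siYAP/TAZ. GBP1 had a fitted change of -0.79 (SE 0.26, adjusted p = 0.159) and -0.81 with the block (adjusted p = 0.0296). OAS1, a double-stranded RNA sensor, had 0.99 (SE 0.46, adjusted p = 0.298) and 1.04 with the block (adjusted p = 0.045), and 1.62 without siCtrl replicate 2 (adjusted p = 0.0309).

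The members' levels were set against each other across the 6 libraries, as a description. Correlation of log2 CPM with the mean of the other members was 0.99 for HLA-B, 0.97 for TAPBP, 0.96 for B2M, 0.90 for HLA-C, 0.86 for HLA-E and PSMB9, 0.76 for TAP1, 0.00 for PSMB8 and -0.82 for TAP2. The members' mean log2 CPM, centred over the libraries, was -0.46, 0.10 and -0.23 in siCtrl and -0.08, 0.40 and 0.26 in siYAP/TAZ. It was lowest in replicate 1 of either group, and siCtrl replicate 2 was above siYAP/TAZ replicate 1. Of 8855 genes with a mean of at least 50 counts outside the lists, those most like this pattern over the 6 libraries were BNIP3L (r = 0.995), RPS27 (0.995), RPL7A (0.995), RPS28 (0.994) and DDB1 (0.994). BNIP3L is a mitophagy receptor, RPS27, RPL7A and RPS28 are ribosomal proteins, and DDB1 is a ubiquitin ligase adaptor. These genes share the libraries, their depth and their scaling with the members. BNIP3L had 22.1, 55.2 and 31.9 CPM under siCtrl against 44.9, 86.9 and 66.1 under siYAP/TAZ, the same order of libraries in which siCtrl replicate 2 stood above siYAP/TAZ replicate 1.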

How the data were processed

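QuantSeq 3′ mRNA-Seq libraries of MCF10A cells (3 siCtrl, 3 siYAP/TAZ) were analysed from the raw counts per Entrez gene that the authors deposited, 1 table with no normalisation. The submitters' processing notes name cutadapt 4.2, Bowtie2 2.3.5.1 and hg19. Which annotation was used, and how strand and multiply mapped reads were treated, is not given in the sources used here; such choices bear on overlapping genes and on heavy chains. All value columns were used. Symbols came from RefSeq (GRCh38.p14 table, names only) and matched 23308 of 23459 IDs, with 99.7% of counts. Coordinates are from GENCODE 44 on GRCh37, promoters from RefSeq.

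Counts were tested with edgeR 4.0.16 (R 4.3.3): default low-count filter, TMM, quasi-likelihood fit on group, and Benjamini-Hochberg adjustment over 12510 genes with a threshold of 0.05. Every adjusted p not tied to a ratio is from that tool. The code was tested on simulated data. Totals of 3175149 to 4317286 counts per library set the precision. Standard errors were derived from the fold change and its F statistic. No 2 libraries were identical.

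Groups and replicate numbers follow the description field, whose entries match the column names. The deviations from the group means of same-numbered libraries correlated across genes (r = 0.42, 0.35 and 0.13 for replicates 1, 2 and 3), each over 0.1. Libraries of different numbers had r from -0.36 to 0.05, and centring each group on its own mean pushes such values below 0. No label states a pairing. The replicate numbers were taken as pairs on the same-numbered correlations, and blocked values are given where they change a call.

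Alternatives were DESeq2 1.42.0, scaling by RLE or by library size alone, omitting the low-count filter or requiring a mean count of 50, robust dispersion, the replicate block, each library left out, the groups of the titles and both disputed libraries left out. The block without each replicate pair and the alternatives for the ratios were added after seeing the data.

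The members and lists were chosen with earlier results of these data known. The text names all members, the targeted genes, the constitutive subunits and PSMB10, list genes past the threshold without or with the block, up to 3 more of each list by mean CPM, and the 5 genes whose pattern is most like the members; others are said to be chosen after their values were seen. Some genes that this rule names are not reported here.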

Additional observations from a re-analysis of the deposited data

How the results depend on the processing

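Each member kept the sign of its fold change under DESeq2, scaling by RLE or library size alone, omission of the low-count filter, robust dispersion, the replicate block, and with both disputed libraries left out. Under the count minimum of 50, the 8 members that remained of 9 also kept it.

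All genes called numbered 245, and 556 with no low-count filter, 587 by DESeq2, 1263 with the replicate block, 0 under the groups of the titles, 1183 with both disputed libraries left out, and 16 to 1579 with 1 library left out, highest without siCtrl replicate 2. With the block and 1 replicate pair left out they numbered 608, 3060 and 193 for pairs 1, 2 and 3. Members called numbered 0, and 3 with the block, 3 with both disputed libraries left out, 0 to 3 with 1 library left out, and 2, 6 and 1 with the block and pairs 1, 2 and 3 left out. Under the groups of the titles 0 members passed even an unadjusted p of 0.05. Other pathway genes called numbered 0, and 2 with no filter (GBP2 and CIITA), 7 with the block, 5 with both disputed libraries left out, and 0 to 9 with 1 library left out.

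Signs turned as follows on the log2 scale. With 1 library left out TAP1 ranged from -0.019 (siYAP/TAZ replicate 2) to 0.442, PSMB6 from -0.109 to 0.043 (siCtrl replicate 1), PSMB7 from -0.053 (siYAP/TAZ replicate 1) to 0.124 and PSMB10 from -0.068 (siYAP/TAZ replicate 1) to 0.506. TAP1 was -0.185 under the titles, where PSMB8 was -0.057 and PSMB5 -0.086. PSMB6 was 0.105 under the titles and 0.066 without both disputed libraries. PSMB7 was -0.004 by library size alone. Under the titles the ratio of PSMB8 to PSMB5 was -0.015 and of PSMB10 to PSMB7 -0.028. The cause of these turns was not tested. PSMB9, PSMB8 and TAP1 had 30 to 106 counts a library; how far depth limits them was not tested.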

Other observations

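MHC class II presentation, the pathway by which professional antigen-presenting cells show extracellular peptides to CD4 T cells, was barely present: 0 of 8 listed genes passed the low-count filter, and no library held more than 13 counts of any. CIITA, the class II transactivator, had 0, 0 and 1 counts under siCtrl against 8, 13 and 3 under siYAP/TAZ. The summed counts of 1 and 24 give a ratio of 23.1 after allowing for library size, with a 95% exact interval of 3.77 to 950.3 that covers counting error only. Without the low-count filter its edgeR adjusted p was 0.0445. HLA-DRA had no counts under siCtrl against 0, 11 and 1 under siYAP/TAZ, and CD74, the invariant chain, had 2, 1 and 1 against 2, 8 and 1. Neither passed without the filter (adjusted p = 0.236 and 0.612), and most of their counts came from siYAP/TAZ replicate 2, a library whose labels disagree. That library also held 13 of the 24 siYAP/TAZ counts of CIITA. These genes were named after their values were seen.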
